A study of Mus musculus with 6 samples.

Results

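The genes described here are 10 genes of the NRF2 antioxidant and glutathione system: Nfe2l2, Keap1, Hmox1, Nqo1, Srxn1, Txnrd1, Slc7a11, Gclc, Gclm and Gsr. They were taken by gene symbol from a table of RNA-sequencing counts of mouse kidney, which holds 34714 genes, and all 10 had a row. All 10 were also among the 18927 genes that had enough counts to be tested. The table covers 2 groups of 3 libraries each. The first group comes from miR-92b knockout mice (KO), described in the labels as miR-92b-/- mice with the allele Mir-92bem22Cd549/Gpt on C57BL/6JGpt, a global deletion. The second comes from wild-type mice (WT), given as C57BL/6J. As labelled, the groups differ in strain as well as in genotype, and these cannot be told apart here. Male mice of both groups were 8 weeks old, were anaesthetised with pentobarbital and had the left ureter double ligated (unilateral ureteral obstruction, UUO). Kidneys were taken 10 days later. The treatment label and the column names give all 6 kidneys as obstructed, although the protocol text calls ligated kidneys nonfibrotic. Sham-operated kidneys were not analysed here, so the values compare KO with WT obstructed kidneys and do not show what obstruction itself did. The labels do not say that replicates are separate animals. The spread behind the p-values may therefore be technical.

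NRF2, the protein made from Nfe2l2, is a transcription factor that switches on genes against oxidants and electrophiles. In unstressed cells KEAP1 binds it and presents it to a CUL3 ubiquitin ligase for degradation. When reactive molecules modify KEAP1, NRF2 accumulates, pairs with a small MAF protein and binds antioxidant response elements in its target genes. The control acts mainly on the protein, so the level of Nfe2l2 RNA is not a measure of NRF2 activity. Glutathione, the main small thiol of the cell, is made from cysteine, glutamate and glycine. Its first step is the joining of glutamate and cysteine by an enzyme of a catalytic subunit (Gclc) and a modifier subunit (Gclm). In the kidney, tubule cells carry a heavy oxidative load and hold much of this machinery.

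The deleted microRNA and the sites in these genes that the seed of its product miR-92b-3p could pair with are shown first, because microRNAs act on RNAs mainly by pairing with the 3' UTR. Sites of its other mature product, miR-92b-5p, and sites outside the 3' UTR were not searched for. Mature miR-92b-3p comes from the minus strand of chr3:89227126-89227147 (RefSeq, GRCm38.p6). Its seed, bases 2 to 8, is in capitals.
miR-92b-3p: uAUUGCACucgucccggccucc
The longest annotated 3' UTR of each gene (GENCODE M21) was searched for the 8mer GTGCAATA, the 7mer-m8 GTGCAAT and the 7mer-A1 TGCAATA, both of which are parts of the 8mer and were not counted again within it. Of the 10 genes, 5 held at least 1 site, against 13.4% of the 15385 tested genes with a 3' UTR. The median 3' UTR was 1103 bases in the 10 genes and 1114 bases in all of those genes. The 8mer was found in 0 of the 10 genes and in 2.65% of the tested genes. A 7mer-m8 or 8mer was found in 1 of the 10 genes and in 7.27% of the tested genes. The sites are in capitals below, with up to 10 bases on either side, and positions count from 1 at the first base after the stop codon.
Hmox1, 7mer-A1 at position 2: aTGCAATActggccccca
Nqo1, 7mer-A1 at position 231: aggtcatttaTGCAATAttcgccattt
Gclc, 7mer-A1 at position 1070: tttgaaagatTGCAATAaagccgcttc
Gclm, 7mer-A1 at position 267: gaaaaatactTGCAATAtatttccttt
Gclm, 7mer-m8 at position 3166: taaatcacttGTGCAATtgtgttctta
Srxn1, 7mer-A1 at position 2172: acacacaccaTGCAATAgcctta
Other members of the miR-92 family share this seed, and a match describes the letters, not a working site.

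The promoters were searched for the core of the antioxidant response element, TGACNNNGC, on both strands, since NRF2 binds such elements in its target genes. The RefSeq table (GRCm38.p6) had a window, 250 bases before to 50 after a start, for 7 of the 10 genes. It had none for Hmox1, Gclc and Gsr. The motif lay in a window of 4 of the 7 genes, against 14% of 27025 genes with a window. The matches are in capitals, on the strand of the gene, with 10 bases on either side.
Nfe2l2, minus strand, chr2:75704885-75704913: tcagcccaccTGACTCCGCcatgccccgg
Gclm, plus strand, chr3:122245413-122245441: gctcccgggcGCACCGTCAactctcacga
Srxn1, plus strand, chr2:152105542-152105570: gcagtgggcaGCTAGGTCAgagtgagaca
Txnrd1, plus strand, chr10:82859104-82859132: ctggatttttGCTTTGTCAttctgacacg
In Gclm, Srxn1 and Txnrd1 the motif reads on the opposite strand. The Txnrd1 match lies in the second of its 3 windows. The windows of Keap1, Nqo1 and Slc7a11 did not hold these letters, which says nothing of elements further away. A match describes the letters, not an element that NRF2 was shown to bind.

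None of the 10 genes differed between KO and WT kidneys past the threshold. By the quasi-likelihood test of edgeR, 0 of the 10 had an adjusted p under 0.05, as did 0% of all genes tested. Without adjustment, 0 of the 10 had a p under 0.05, against 7.9% of all genes tested (4.38% higher and 3.52% lower in KO). DESeq2 and limma-voom called 0 of the 10 as well, against 0.18% higher and 0.148% lower of all genes with DESeq2 and 0.00528% higher and 0.0106% lower with limma-voom. Groups that did not overlap were seen for 0 of the 10 genes and for 16.1% of all genes tested (8.95% higher and 7.2% lower in KO). The log2 fold change, KO over WT, was above 0 for 7 genes and below 0 for 3. Its median was 0.07 over the 10 genes and -0.02 over all genes tested. Missing the threshold does not show that the groups were alike, so each gene is given with the 95% interval of its fold change.

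**Figure D1:**
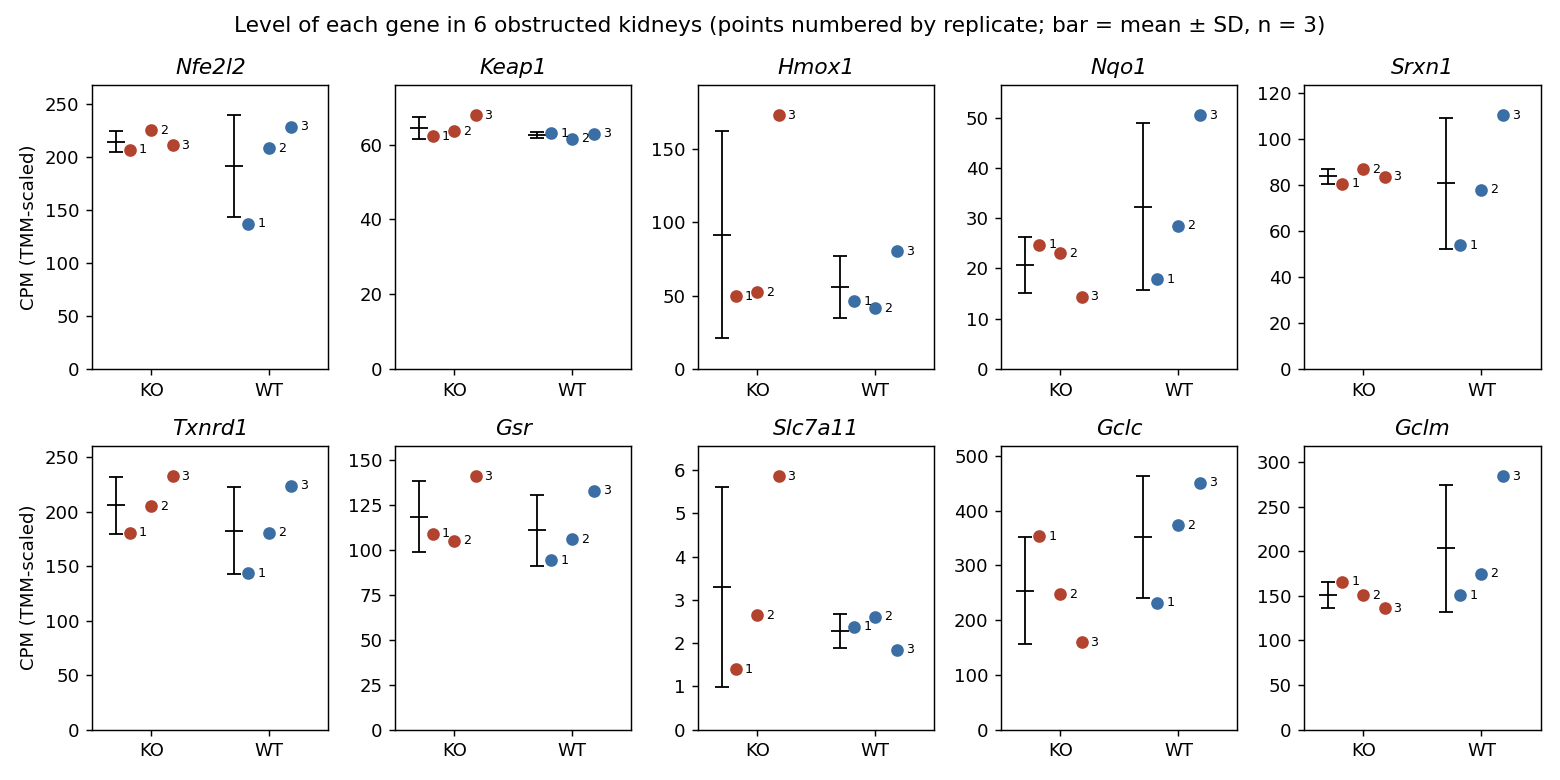
Level of each of the 10 genes in CPM (TMM-scaled, y axis from 0) in the 3 KO libraries and the 3 WT libraries; points are libraries numbered by replicate and bars are the mean ± SD (n = 3). In every panel the KO and WT points overlap, Keap1 is nearly flat, and KO replicate 3 stands far above the other 5 libraries for Hmox1 (173 CPM).

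Levels are given in CPM, the counts of a gene scaled to library size and, by the TMM method, to composition. Nfe2l2 (chromosome 2, 75675513 to 75704663, GRCm38) encodes NRF2 itself. It measured 207, 226 and 211 CPM in the KO libraries, against 137, 208 and 229 CPM in the WT libraries. The KO values lay close together and within the range of the WT values, in which replicate 1 was low. The means were 215 ± 9.82 CPM in KO and 192 ± 48.0 CPM in WT (SD, n = 3 each). KO over WT, this was a log2 fold change of 0.16 ± 0.20 (SE; edgeR adjusted p = 0.802), and the interval of the fold ran from 0.808 to 1.55. Without WT replicate 1 the log2 value was -0.027.

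Keap1 (chromosome 9, 21229730 to 21239332) encodes the adaptor that marks NRF2 for degradation, and was the steadiest of the 10 genes. It measured 62.2, 63.5 and 67.8 CPM in KO, against 63.0, 61.6 and 62.9 CPM in WT. All 6 libraries were nearly level. The SD of its log2 CPM over the 6 libraries was 0.049, which lay at percentile 0.333 of all genes tested. Its log2 fold change was 0.05 ± 0.11 (edgeR adjusted p = 0.901). The 95% interval of the fold, 0.864 to 1.23, was the narrowest of the 10.

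Hmox1 (chromosome 8, 75093618 to 75100593) encodes haem oxygenase, the inducible enzyme that breaks down haem into iron, carbon monoxide and biliverdin. It measured 49.7, 52.4 and 173 CPM in KO, against 46.4, 41.2 and 80.3 CPM in WT. KO replicate 3 stood apart, and the other 2 KO libraries lay between WT replicates 1 and 3. The means were 91.7 ± 70.5 CPM in KO and 56.0 ± 21.2 CPM in WT (SD, n = 3 each). On the log2 scale the fold change was 0.71 ± 0.51 (edgeR adjusted p = 0.677), with a fold interval of 0.716 to 3.76. The log2 value was -0.13 without KO replicate 3, 1.07 without WT replicate 3 and 0.22 without both.

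Nqo1 (chromosome 8, 107388225 to 107403205) encodes a quinone reductase that is a classical reporter of NRF2 activity. It measured 24.7, 23.0 and 14.4 CPM in KO, against 17.9, 28.5 and 50.4 CPM in WT. The lowest library was KO replicate 3 and the highest WT replicate 3, while WT replicate 1 lay below the other 2 KO libraries. The means were 20.7 ± 5.54 CPM in KO and 32.3 ± 16.6 CPM in WT (SD, n = 3 each). This gave a log2 fold change of -0.64 ± 0.38 (edgeR adjusted p = 0.649), with a fold interval of 0.35 to 1.17. The log2 value was -0.16 without WT replicate 3 and 0.044 without KO and WT replicates 3.

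Srxn1 and Txnrd1 serve the thioredoxin and peroxiredoxin system. Srxn1 (chromosome 2, 152105524 to 152111376) encodes sulfiredoxin, which repairs over-oxidised peroxiredoxins. It measured 80.5, 86.9 and 83.6 CPM in KO, against 53.7, 78.0 and 110.2 CPM in WT. As with Nfe2l2, the 3 KO values were close together inside a wide WT range. Its log2 fold change was 0.05 ± 0.24 (edgeR adjusted p = 0.95; fold interval 0.707 to 1.52), and the log2 value was -0.17 without WT replicate 1 and 0.35 without WT replicate 3. Txnrd1 (chromosome 10, 82833951 to 82897724) encodes the cytosolic thioredoxin reductase, a selenoprotein. It measured 181, 205 and 233 CPM in KO, against 144, 181 and 224 CPM in WT. The ranges overlapped over most of their length. KO over WT, its log2 fold change was 0.17 ± 0.20 (edgeR adjusted p = 0.784; fold interval 0.822 to 1.55), with a log2 value of 0.03 without WT replicate 1 and 0.35 without WT replicate 3.

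The glutathione genes begin with supply. Slc7a11 (chromosome 3, 50364936 to 50499087) encodes xCT, the exchanger that brings in cystine. It was by far the weakest of the 10, with 61, 123 and 295 counts in KO and 101, 129 and 87 counts in WT. In CPM these were 1.39, 2.64 and 5.86 in KO and 2.38, 2.61 and 1.85 in WT. KO held both the lowest and the highest library. On the log2 scale the difference was 0.53 ± 0.50 (edgeR adjusted p = 0.737; fold interval 0.654 to 3.21), and it was -0.18 without KO replicate 3.

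Gclc (chromosome 9, 77754535 to 77794489), the catalytic subunit of glutamate-cysteine ligase, measured 354, 248 and 159 CPM in KO, against 232, 373 and 451 CPM in WT. The highest 2 libraries were from WT and the lowest from KO, with WT replicate 1 below KO replicates 1 and 2. The means were 254 ± 97.4 CPM in KO and 352 ± 111 CPM in WT (SD, n = 3 each). Its log2 fold change was -0.47 ± 0.34 (edgeR adjusted p = 0.675; fold interval 0.42 to 1.24). The log2 value was -0.23 without KO replicate 3 and -0.007 without KO and WT replicates 3.

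Gclm (chromosome 3, 122245487 to 122267215), the modifier subunit, had the smallest p of the 10 genes. It measured 166, 150.4 and 136 CPM in KO, against 151, 175 and 284 CPM in WT. Only WT replicate 3 stood clearly above the rest, and the groups overlapped through WT replicate 1, which lay between KO replicates 1 and 2. With library size alone as the scaling, the groups did not overlap. The means were 151 ± 14.8 CPM in KO and 203 ± 71.2 CPM in WT (SD, n = 3 each). This was a log2 fold change of -0.43 ± 0.24 (edgeR adjusted p = 0.641; fold interval 0.502 to 1.1). The log2 value was -0.11 without WT replicate 3 and -0.04 without KO and WT replicates 3.

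Gsr (chromosome 8, 33653238 to 33698162) encodes glutathione reductase, which restores oxidised glutathione. It measured 109, 105 and 141 CPM in KO, against 94.2, 106 and 133 CPM in WT. The 2 groups had similar ranges, with replicate 3 the highest in each. Its log2 fold change was 0.09 ± 0.18 (edgeR adjusted p = 0.873; fold interval 0.796 to 1.43). The log2 value was -0.051 without KO replicate 3.

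**Figure D2:**
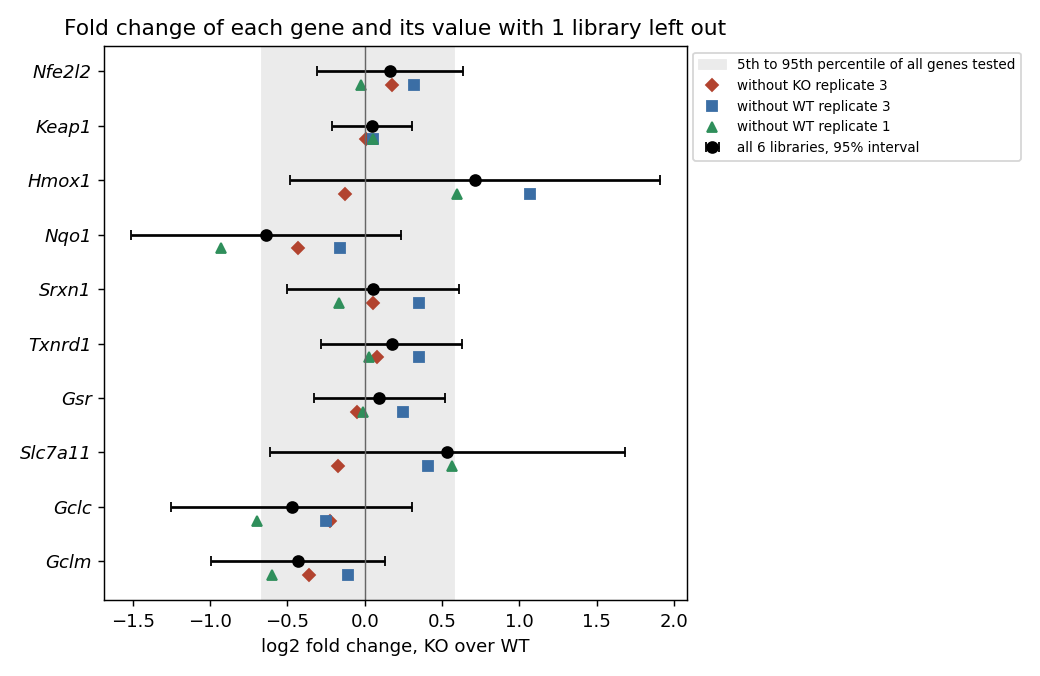
Log2 fold change of each of the 10 genes, KO over WT (x axis): black points with all 6 libraries, bars the 95% interval, and colored symbols the value with KO replicate 3, WT replicate 3 or WT replicate 1 left out; the grey band holds the 5th to 95th percentile of all genes tested (-0.67 to 0.58). Every interval includes 0, and the symbols of Hmox1 run from -0.13 to 1.07.

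Single libraries weighed on most of these values. The fold change of Nfe2l2, Hmox1, Srxn1, Gsr and Slc7a11 changed sign when some 1 library was left out. For Keap1, Nqo1, Txnrd1, Gclc and Gclm it kept its sign with any 1 library left out. Without WT replicate 1, KO and WT did not overlap for Nqo1, Gclc and Gclm, at log2 fold changes of -0.93, -0.70 and -0.60. The unadjusted edgeR p was then 0.0243 for Nqo1, 0.0692 for Gclc and 0.0288 for Gclm, and the adjusted p was 0.735 for all 3. Other omissions separated other genes, with KO higher. These were Hmox1 and Srxn1 without WT replicate 3, at 1.07 and 0.35, and Keap1 and Slc7a11 without KO replicate 1, at 0.07 and 0.90. How many of all genes tested did not overlap at each of these omissions was not counted. Groups separate more easily when they hold fewer libraries.

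For each of the 10 genes a replicate 3 was the highest library. Nfe2l2, Nqo1, Srxn1, Gclc and Gclm were highest in WT replicate 3, and Keap1, Hmox1, Txnrd1, Gsr and Slc7a11 were highest in KO replicate 3. No other library was the highest for any of the 10. Over all genes tested, WT replicate 3 was the highest for 23.5% and KO replicate 3 for 18.8%. WT replicate 1 was the lowest for 4 of the 10 genes (Nfe2l2, Srxn1, Txnrd1 and Gsr), and KO replicate 3 was the lowest for Nqo1, Gclc and Gclm. Over all genes tested these libraries were the lowest for 27.3% and 19%. The genes that share a highest library did not share a profile. Nfe2l2 and Srxn1 stood at 0.08 and 0.06 in KO replicate 3 (log2 CPM minus the mean of the gene), against -0.76, -0.84 and -0.33 for Nqo1, Gclc and Gclm. Txnrd1 and Gsr were above their mean in both replicates 3, at 0.28 and 0.31 in KO replicate 3 and 0.22 and 0.23 in WT replicate 3.

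**Figure D3:**
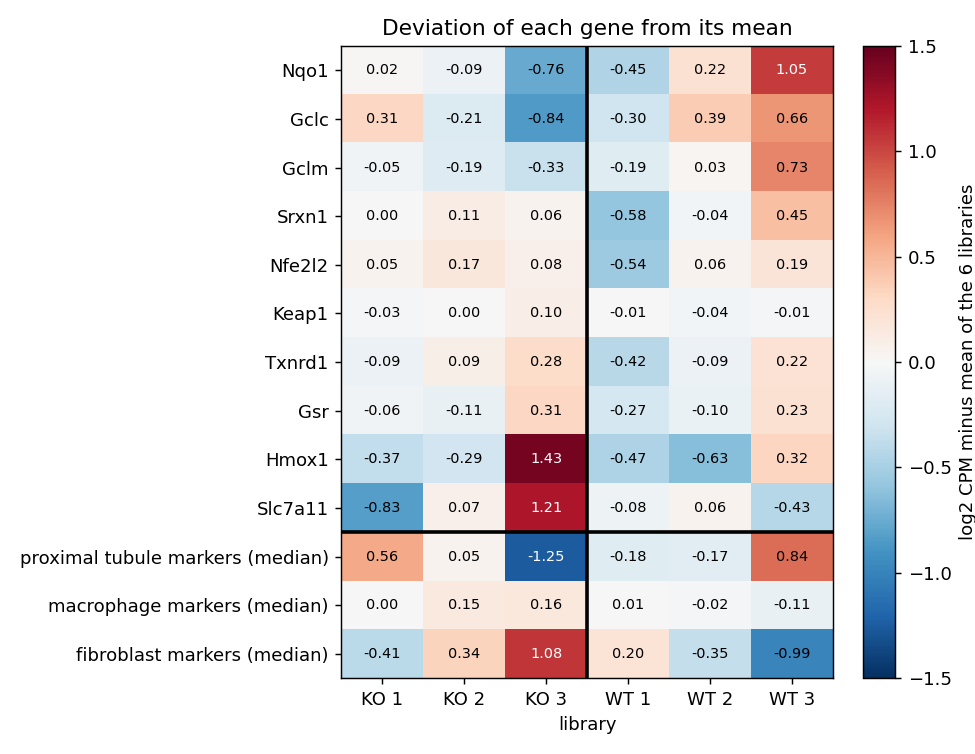
Log2 CPM of each gene minus its mean over the 6 libraries (color and printed value), for the 10 genes and, below the line, the median over markers of proximal tubule, macrophages and fibroblasts; columns are KO libraries on the left and WT libraries on the right. Nqo1 and Gclc stand at -0.76 and -0.84 in KO replicate 3 and at 1.05 and 0.66 in WT replicate 3, where the proximal tubule markers stand at -1.25 and 0.84, while Hmox1, Slc7a11, Gsr and Txnrd1 stand at 1.43, 1.21, 0.31 and 0.28 in KO replicate 3.

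KO replicate 3 and WT replicate 3 stood at opposite ends for the summed proximal tubule markers and the summed fibroblast markers. This also held for Nqo1, Gclc and Gclm but not for the other 7 genes. It did not hold for the summed kidney segment markers, which were lowest in KO replicate 3 (1460 CPM) but highest in KO replicate 1 (6328 CPM), with WT replicate 3 at 5357 CPM. Nor did every single proximal tubule marker follow the sum: Slc5a12 was highest in KO replicate 1 and Slc22a8 in WT replicate 1. The summed level of 12 proximal tubule markers was 8239.7, 5015 and 2681 CPM in KO and 5996, 5417 and 16515 CPM in WT, so KO replicate 3 was lowest and WT replicate 3 highest. Kap alone made up 4838, 2674 and 1483 CPM of this in KO and 3913, 3220 and 12319 CPM in WT. The other 11 markers summed to 3402, 2341 and 1198 CPM in KO and 2083, 2197 and 4196 CPM in WT, with the same lowest and highest library but a smaller lead of WT replicate 3 over KO replicate 1. The 9 fibroblast markers ran the other way, at 1709, 3026 and 5053 CPM in KO and 2765, 1788 and 1278 CPM in WT. The 12 markers of macrophages, a cell type known for Hmox1, summed to 1127, 1279.5 and 1239 CPM in KO. In WT the sums were 1059, 1039.5 and 1016 CPM, so by this measure each KO library stood above each WT library. By the median over the markers (log2 CPM minus the mean of the gene) the groups overlapped, with KO replicate 1 at -0.0013 and WT replicate 1 at 0.0107. Of the 12 markers, 11 had a log2 fold change above 0, with a median of 0.17, and 0 passed the adjusted threshold. Without KO and WT replicates 3, 8 lay above 0, with a median of 0.10. No marker of the proximal tubule, fibroblast and macrophage lists was at 0 in any library. In whole kidney, fewer cells of a type and less RNA per cell cannot be told apart, and the part of cell make-up in the values of the 10 genes was not tested.

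Levels were compared between genes per kilobase of the longest annotated transcript. Which transcripts were in use was not determined, and a shorter one would raise the value of its gene, so the order depends on these lengths. In KO the highest was Nfe2l2, at 86.7 ± 3.97 CPM per kb, followed by Gclc at 74.1 ± 28.5, Hmox1 at 58.5 ± 44.9, Txnrd1 at 56.9 ± 7.19 and Gsr at 44.3 ± 7.38 CPM per kb. Srxn1 and Gclm came next, at 29.8 ± 1.13 and 27.0 ± 2.64 CPM per kb, above Keap1 at 17.9 ± 0.817 and Nqo1 at 13.3 ± 3.57 CPM per kb. Slc7a11 was last, at 0.357 ± 0.25 CPM per kb (SD, n = 3 each). In WT the order began with Gclc at 103 ± 32.4 CPM per kb, above Nfe2l2 at 77.4 ± 19.4, Txnrd1 at 50.4 ± 11.1 and Gsr at 41.5 ± 7.41 CPM per kb. Gclm, Hmox1 and Srxn1 followed at 36.4 ± 12.7, 35.7 ± 13.5 and 28.7 ± 10.1 CPM per kb. Nqo1 at 20.8 ± 10.7 and Keap1 at 17.3 ± 0.224 CPM per kb stood above Slc7a11 at 0.247 ± 0.042 CPM per kb. In KO, the mean ± SD of neighbours overlapped from Nfe2l2 down to Gsr and between Srxn1 and Gclm, but not at the other steps. In WT it overlapped at every step but the last, from Keap1 to Slc7a11. Slc7a11 stood below the other 9 genes in every library. By these lengths the catalytic subunit exceeded its modifier in every library. The ratio of Gclc to Gclm per kilobase was 3.48, 2.69 and 1.91 in KO and 2.51, 3.49 and 2.59 in WT, so the groups overlapped here too.

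The 5 genes with a miR-92b-3p seed site did not move one way. Hmox1 and Srxn1 had log2 fold changes above 0, at 0.71 and 0.05. Nqo1, Gclc and Gclm, the last with 2 sites, were below 0, at -0.64, -0.47 and -0.43. The 5 genes without such a site (Nfe2l2, Keap1, Txnrd1, Gsr and Slc7a11) were all above 0 with all libraries, against 47.7% of all genes tested. These signs were not steady. Nfe2l2, Gsr and Slc7a11, like Hmox1 and Srxn1, changed sign when some 1 library was left out. Keap1 was at 0.001 with the trend on transcript length removed. Whether the sites and the fold changes are related was not tested. None of the 10 passed the test.

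The member with the smallest p, Gclm, was compared over the 6 libraries with 12438 other genes of at least 5 CPM. The 3 genes with the most similar profile were Timm17a, part of a mitochondrial protein import complex, Gss, which encodes glutathione synthetase, and Gstm5, a glutathione transferase. Their centred log2 CPM differed from that of Gclm by 0.0438, 0.045 and 0.0454 (root mean square). Gss measured 184, 165 and 144 CPM in KO, against 176, 195 and 322 CPM in WT.

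The rest of the pathway was read from 9 lists with 94 genes beside the 10. With edgeR, 0 of the 94 passed the adjusted threshold. Without adjustment, 8 had a p under 0.05 (5 higher and 3 lower in KO), a share of 8.51% against 7.9% of all genes tested. All 8 are given with their values here or among the further observations. The log2 fold change was below 0 for 65 of the 94 (69.1%), with a median of -0.20, against 52.3% and -0.02 over all genes tested. This turned round without WT replicate 3, when 38 of the 94 (40.4%) were below 0, with a median of 0.09, against 49.3% of all genes tested.

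Among 8 partners and regulators of NRF2 the median log2 fold change was 0.04, with 4 above 0 and 4 below, and without WT replicate 3 it was 0.22. Bach1, the repressor that competes with NRF2 at its elements and restrains Hmox1, measured 77.2, 88.8 and 83.4 CPM in KO, against 58.0, 69.5 and 69.6 CPM in WT. The groups did not overlap, and the log2 fold change was 0.34 ± 0.13 (edgeR adjusted p = 0.627), or 0.21 with the trend on transcript length removed. Nfe2l1, a relative of NRF2, and Rbx1, a subunit of the CUL3 ligase, were at 0.36 ± 0.20 (0.20 without WT replicate 1) and -0.26 ± 0.14.

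Other thiol and radical defence genes lay mostly below 0, 19 of 20, with a median of -0.26. The 3 with the smallest p were Prdx5, a peroxiredoxin (-0.62 ± 0.29), Osgin1 (-0.64 ± 0.31) and Txn2, the mitochondrial thioredoxin (-0.36 ± 0.19), and none had an unadjusted p under 0.05. Glutathione transferases lay below 0 for 16 of 17, with a median of -0.36. Mgst3, a microsomal member, measured 49.6, 43.9 and 51.3 CPM in KO, against 76.5, 53.4 and 72.7 CPM in WT, without overlap, at -0.48 ± 0.16 (edgeR adjusted p = 0.627). It was at -0.29 with the length trend removed. Gstt2 and Gstm5 were at -0.64 ± 0.29 and -0.46 ± 0.22. These families hold near-identical copies among which counts may have been split. Without WT replicate 3, in which the proximal tubule markers were highest, 10 of 20 defence genes and 12 of 17 transferases lay below 0, at medians of -0.01 and -0.17. Prdx5, Osgin1, Txn2, Gstt2 and Gstm5 were then at -0.32, -0.26, -0.16, -0.35 and -0.16.

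Of 8 other genes of glutathione synthesis and turnover, 5 lay below 0, with a median of -0.27 that was 0.15 without WT replicate 3. Gss was at -0.49 ± 0.25, Dpep1, a dipeptidase, at 0.43 ± 0.27 and Chac1, which degrades glutathione, at -0.66 ± 0.44. Without WT replicate 3 Gss and Chac1 were at -0.17 and -0.069, and Dpep1 was at 0.10 without KO replicate 2. The 6 genes of NADPH supply, the reducing power that Gsr, Txnrd1 and Nqo1 use, had a median of 0.02 (0.18 without WT replicate 3), with G6pdx at 0.07 ± 0.12, Idh1 at 0.12 ± 0.23 and Taldo1 at -0.25 ± 0.20, of which Taldo1 was at -0.005 without WT replicate 3.

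The 9 genes of detoxification and efflux had a median of 0.10, or 0.16 without replicate 3 of KO or of WT. Cbr1, a carbonyl reductase, measured 40.1, 32.0 and 34.4 CPM in KO, against 49.6, 41.7 and 47.6 CPM in WT, without overlap, at -0.38 ± 0.14 (edgeR adjusted p = 0.627). Its relative Cbr3 was at 0.48 ± 0.23 and the exporter Abcc4 at 0.39 ± 0.19 (0.21 without WT replicate 1). Of 11 genes of haem and iron handling, the processes Hmox1 joins, 5 lay above 0, and the median was -0.01. That median was -0.28 without KO replicate 3, and 0.10 with 9 of 11 above 0 without WT replicate 3. Slc40a1, the iron exporter ferroportin, measured 152, 169 and 206 CPM in KO, against 102, 134 and 147 CPM in WT, without overlap, at 0.46 ± 0.19 (edgeR adjusted p = 0.627). Tfrc, the transferrin receptor, was at -0.62 ± 0.29, or -0.24 without WT replicate 3 and -0.10 without KO and WT replicates 3. Hpx, which binds free haem, was at -0.64 ± 0.33.

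**Figure D4:**
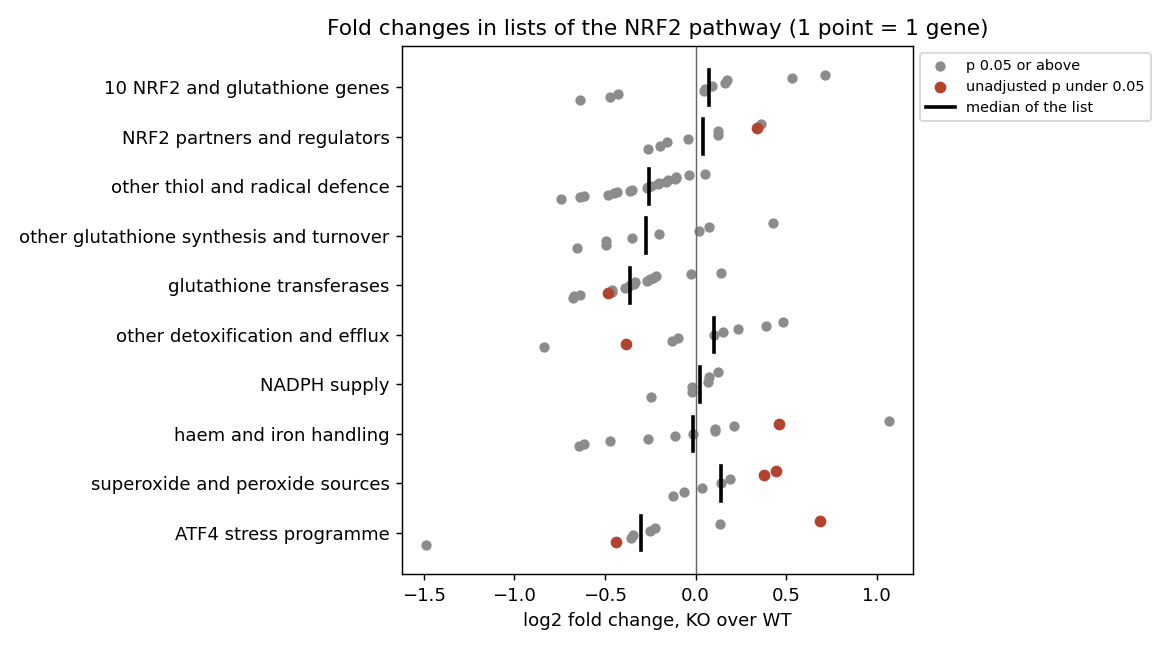
Log2 fold change, KO over WT (x axis), of every gene in the 10 NRF2 and glutathione genes and in 9 lists of the wider pathway; a point is a gene, a bar the median of a list, and red marks an unadjusted edgeR p under 0.05. The 10 genes straddle 0 with no red point, and glutathione transferases lie mostly to the left, at a median of -0.36.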

How the data were processed

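The values are counts of reads for each gene symbol, deposited by the authors as whole numbers with no normalization. Genome build GRCm38 (also named mm10) comes from the submitters' processing notes. For the aligner, the counter and its strand setting, nothing was given in the sources used here. Genes that overlap, lie antisense or have close copies may thus share counts. WT columns carry the name in the library's description, and KO columns the same parts in another order. Library totals were 44476507, 46804547 and 50769801 counts in KO and 38738204, 47893534 and 51932509 counts in WT. Along the first principal component, with 38.1% of the variance, KO replicate 3 and WT replicate 3 lay at opposite ends. All 8 markers of kidney segments were detected in every library. The level of miR-92b was not analysed here, so the genotype labels were not checked against the deletion. No pair of libraries was a copy (chi-square per degree of freedom 31.1 or more).

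Genes were filtered with filterByExpr, scaled by TMM and fitted in edgeR 4.0.16 (R 4.3.3) by robust quasi-likelihood, with group as the only term and the F test. The Benjamini-Hochberg adjustment ran over all genes tested, with a threshold of 0.05. Intervals of 95% used the standard error (the log2 fold change over the root of F) and the degrees of freedom of each gene. Log2 CPM had a prior count of 2. DESeq2 1.42.0 and limma 3.58.1 were alternatives, beside other scalings and filters, a replicate block, removal of the trend on transcript length (GENCODE M21, found for 89.7% of genes) and each library left out. The pipeline was also run on simulated counts with known changes. Its recovery of small changes is not given here, and no result above rests on that run. The members and lists were chosen with earlier results of these data known. Genes named were the members, every gene of a list at an unadjusted p under 0.05 and, in each list, up to 3 of lowest p whose mean reached 1 CPM.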

Additional observations from a re-analysis of the deposited data

How the results depend on the processing

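Over 17 alternatives the 10 genes gave 170 fold changes, of which 0 passed the adjusted threshold and 8 changed sign. Leaving out 1 library in turn, the log2 fold change ran from -0.027 to 0.32 for Nfe2l2, -0.13 to 1.07 for Hmox1, -0.17 to 0.35 for Srxn1, -0.051 to 0.25 for Gsr and -0.18 to 0.90 for Slc7a11. With replicate 3 of both groups left out Nqo1 was at 0.044 and Slc7a11 at -0.30. Among the other genes named, Atf3 was then at 0.053, Cd3d at 0.00101 and Kap at 0.076, and Idh1 ran from -0.069 to 0.37 with 1 library left out. The number of the 10 genes without overlap was 1 with library size alone (Gclm), 0 to 3 with 1 library left out, and 2 (Hmox1 and Srxn1) without replicate 3 of both groups. At an unadjusted p under 0.05 there were 0 to 2 of the 10 with 1 library left out. For these settings the share of all genes tested that met either rule was not counted. Groups also separate more easily when they hold fewer libraries. Over all genes, 34 were called higher and 28 lower with DESeq2, 1 and 2 with limma-voom, 1 and 1 with no filter, 0 to 1 higher with 1 library left out and 1 higher without replicate 3 of both groups. With the replicate block 1 was called higher, and none of the 10. Jchain was the gene called higher in each of these edgeR and limma-voom fits. Deviations from the group mean correlated at -0.282, 0.179 and -0.288 between same-numbered libraries, and 1 KO library correlated best with its own number. Deviations within a group of 3 depend on each other, so these correlations cannot show whether same-numbered libraries share more than a number. The cause of these changes was not tested. With 3 libraries a group, the 95% interval of Hmox1 and Slc7a11 spans over 2-fold on the higher side, and that of Nqo1, Gclc and Gclm reaches 0.35, 0.42 and 0.502.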

Other observations

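Genes that make superoxide and peroxide, the oxidants this system meets, had a median log2 fold change (KO over WT) of 0.14 over 7 genes, or 0.08 without KO replicate 3 and 0.26 without WT replicate 3. Cybb, the core of the phagocyte oxidase, measured 90.0, 97.3 and 71.1 CPM in KO, against 54.2, 71.6 and 64.2 CPM in WT, at 0.44 ± 0.17 (edgeR adjusted p = 0.627). Xdh, xanthine dehydrogenase, measured 109.9, 124 and 111 CPM in KO, against 76.5, 104 and 85.0 CPM in WT, without overlap, at 0.38 ± 0.15 (edgeR adjusted p = 0.627; 0.21 with the length trend removed). Ncf1, a subunit of the same oxidase, was at 0.19 ± 0.14, or 0.08 without KO replicate 3.

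The ATF4 programme, which also drives Slc7a11, had a median of -0.30 over 8 genes, or -0.18 without WT replicate 3. Sesn2, sestrin 2, had the smallest p of the whole pathway, at 47.2, 44.7 and 48.8 CPM in KO, against 21.5, 32.1 and 33.7 CPM in WT. The groups did not overlap, and the log2 fold change was 0.69 ± 0.18 (edgeR adjusted p = 0.627). It stayed between 0.51 and 0.81 with 1 library left out. Ddit3, the stress factor CHOP, measured 20.3, 23.7 and 23.6 CPM in KO, against 31.6, 26.1 and 34.1 CPM in WT, at -0.44 ± 0.15 (edgeR adjusted p = 0.627; -0.22 with the length trend removed). Atf3 was at -1.49 ± 0.72, with WT replicate 3 at 219 CPM and the other 5 libraries at 22.1 to 56.0 CPM, and at -0.20 without that library.

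The marker lists gave these values. Kidney segment markers had a median of -0.25, or -0.077 without KO replicate 3, -0.12 without WT replicate 3 and 0.078 without both, with Nphs1 at -0.68 ± 0.20, Aqp2 at -1.26 ± 0.58 and Slc12a1 at -0.55 ± 0.47. Without KO replicate 3 Aqp2 and Slc12a1 were at -0.80 and -0.15, and Nphs1 was at -0.45 without WT replicate 1. For the proximal tubule list the median was -0.32, or -0.045 without KO replicate 3, 0.07 without WT replicate 3 and 0.34 without both, with Kap at -1.11 ± 0.61, Miox at -0.98 ± 0.62 and Slc5a2 at -0.60 ± 0.39. Kap was at -0.25 without WT replicate 3, and Miox and Slc5a2 at -0.54 and -0.23 without KO replicate 3. Macrophage markers had a median of 0.17, or 0.10 without KO and WT replicates 3. Among them Itgam was at 0.40 ± 0.13, C1qb at 0.33 ± 0.13 and Adgre1 at 0.59 ± 0.29 (0.33 without WT replicate 1). Removing the length trend put C1qb at 0.52. Fibroblast markers had a median of 0.77, or 0.24 without KO replicate 3 and 0.08 without KO and WT replicates 3, with Dpt at 0.88 ± 0.28, Pdgfra at 0.77 ± 0.28 and Col1a1 at 1.03 ± 0.51 (0.42 without KO replicate 3). Red blood cell markers had a median of 0.40, or 0.18 without WT replicate 3 and 0.71 with the length trend removed, with Hbb-bs at 0.53 ± 0.17, Hbb-bt at 0.44 ± 0.20 and Alas2 at 0.66 ± 0.33. Lymphocyte markers had a median of 0.20, or 0.55 without KO replicate 3, with Jchain at 83.2 ± 27.7 CPM in KO and 5.19 ± 1.58 CPM in WT (SD, n = 3 each; edgeR adjusted p = 0.0568), Cd3d at -0.59 ± 0.43 and Cd8a at -0.35 ± 0.31. Without KO replicate 3 Cd3d and Cd8a were at -0.25 and -0.12. All of the 6 skeletal muscle markers were lower in each KO library than in each WT library, at summed levels of 2.09 to 3.71 CPM in KO and 8.38 to 9.26 CPM in WT. Myh4 and Myh1 had 0 counts in all 3 KO libraries. Ckm, Tnnt3 and Acta1 averaged 0.0275, 0.212 and 0.332 CPM in KO, against 0.693, 0.987 and 1.57 CPM in WT. Ttn was at -0.52 ± 0.31, or -0.28 without KO replicate 3. With all 6 libraries and no block, filtered and TMM-scaled, edgeR called none of these muscle genes and not Jchain, while DESeq2 called 5 of the 6 and Jchain. The adjusted p of Jchain ran from 5.52e-30 (DESeq2) to 0.735 (edgeR without WT replicate 1) over its alternatives. With edgeR it was 0.0307 with no filter, 0.0221 with the replicate block and 0.0169 without KO replicate 3, and limma-voom gave 0.0106. Myh4 was also called with no filter and, like Myh1, by limma-voom.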
